A study of Homo sapiens with 12 samples.

Results

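The genes described here are 45 markers of epithelial and mesenchymal cell identity, with the keratins and S100 proteins that accompany them, out of 60664 genes counted. They were found by their gene symbol, from a list chosen when earlier results of these data were known, and comprised 17 mesenchymal genes, 15 epithelial genes and 13 keratin and S100 genes. RNA-seq was performed on MDA-MB-231 cells, an established human line from a triple-negative breast cancer, to ask what changes under low oxygen and what changes when CCAR2 is lost. The 12 libraries fell into 3 groups of 4, namely wildtype (WT) cells in normoxia, WT cells kept at 1% O2 for 24 hr (hypoxia), and CCAR2 knockout (KO) cells in normoxia. CCAR2 encodes the protein that the study calls DBC1, and the KO cells were made with a lentiviral CRISPR vector carrying a guide against it. Whether the KO cells were a single clone, and whether the WT cells carried an empty vector, is not given in the sources used here.

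In the epithelial to mesenchymal transition, cells give up cadherin and claudin junctions and keratin filaments and gain vimentin, matrix proteins and contractile proteins. The transcription factors of the SNAI, ZEB and TWIST families repress epithelial genes, whereas ESRP splicing factors, GRHL2 and OVOL1 hold the epithelial state. Keratins form intermediate filaments as pairs of a type I and a type II chain, and which pairs are made differs between luminal cells, basal cells and hair. MDA-MB-231 is commonly used as a mesenchymal-like breast cancer line.

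The sums of the deposited counts lay between 68599412 and 213743693 per library. CCAR2 itself was at 146 ± 3.11 CPM (counts scaled to the size of the library; mean ± SD, n = 4) in WT normoxia, 149 ± 4.95 CPM in hypoxia and 57.8 ± 2.81 CPM in KO cells, and the highest KO library (61.3 CPM) was below the lowest WT library. WT hypoxia replicate 2 stood farthest from its group, where the chi-square over genes, divided by its degrees of freedom, was 56.2 to 87.2 against the other hypoxia libraries and 13.0 to 52.2 for all other pairs of replicates. ESR1 and PGR, the estrogen and progesterone receptors, reached at most 0.470 and 0.174 CPM in any library, and ERBB2 lay between 88.8 and 107 CPM. The labels do not say that the libraries came from separate cultures, and the methods give replicate numbers that differ from the 4 libraries per group used here, so the p-values measure only the spread between these libraries.

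Among the members, VIM (vimentin, chr10:17228259-17237593) was the most abundant per length in every group, at 989 CPM per kb of exon in WT normoxia, 890 CPM per kb in hypoxia and 1007 CPM per kb in KO cells. Levels are compared between genes only on this scale, with exon lengths and coordinates from GENCODE v29 on GRCh38. VIM mRNA was at 5115, 5239, 5046 and 5013 CPM in the 4 WT normoxia libraries, at 4547, 4969, 4408 and 4440 CPM in hypoxia and at 5397, 5107, 5333 and 4946 CPM in KO cells. The hypoxia libraries lay below all WT normoxia libraries, yet the log2 fold change of -0.16 did not pass the test (edgeR's quasi-likelihood test, adjusted p = 0.0671). In bulk RNA, fewer cells of a type and less RNA per cell cannot be told apart.

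At the other end, 5 members had no count in any of the 12 libraries. These were TWIST1 and TWIST2, KRT5, the type II keratin of basal cells, and S100A8 and S100A9, the subunits of calprotectin. If each count were a single read, a count of 0 would allow up to 3 counts, or 0.0144 to 0.0430 CPM depending on the library, which covers counting error only. The scale of the values is not stated, so the true limit may be higher. GRHL2 had at most 8 counts and OVOL1 at most 12 counts in any library, and neither entered a test. CDH1, which encodes E-cadherin, had 0 to 40 counts per library and passed the filter on low counts only in the comparisons with KO cells. Its levels were 0, 0.0614, 0.0814 and 0.0262 CPM in WT normoxia, 0, 0.0490, 0.0243 and 0.101 CPM in hypoxia and 0.152, 0.0574, 0.260 and 0.0838 CPM in KO cells. The log2 fold change of 1.70 ± 0.81 (SE) in KO cells did not pass the test (edgeR, adjusted p = 0.143), and the groups overlapped.

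**Figure D1:**
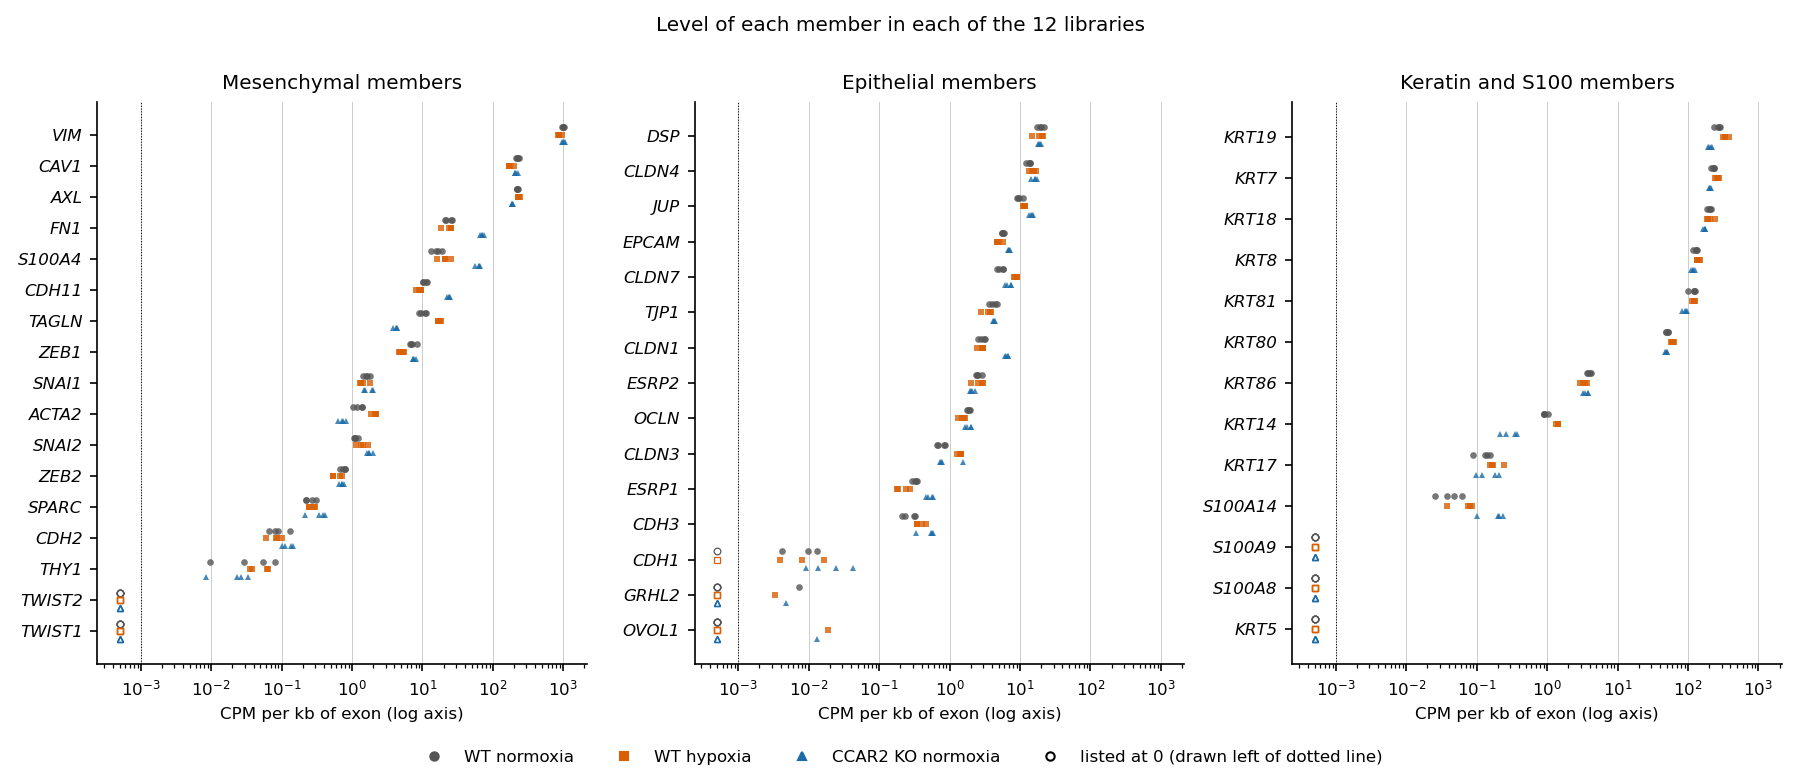
Level of each member in each of the 12 libraries, in CPM per kb of exon on a log axis, by class and group, with open symbols for libraries listed at 0. VIM lies to the right of the other mesenchymal members, and CDH1, GRHL2, OVOL1, TWIST1, TWIST2, KRT5, S100A8 and S100A9 lie at or near 0.

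Calls required an adjusted p-value under 0.05 together with a log2 fold change of at least 0.5 in either direction. Under hypoxia, 5 of the 37 members tested were called higher and 2 lower. Over all 21776 genes tested, 5.83% were called higher and 1.43% lower, 7.26% in all, against 18.9% of the members tested. The median log2 fold change of the members was 0.07, beside 0.01 over all genes tested. The 5 that rose were the contractile genes TAGLN and ACTA2, the claudins CLDN3 and CLDN7 and the keratin KRT14, and the 2 that fell were ZEB1 and ESRP1. Mesenchymal and epithelial members thus stood on both sides, with medians of -0.04 over 15 mesenchymal and -0.01 over 12 epithelial members.

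In KO cells, 9 of the 38 members tested were called higher than in WT normoxia and 3 lower. Over all 21410 genes tested, 6.73% were called higher and 2.94% lower, 9.67% in all, against 31.6% of the members tested. The 9 that rose were FN1, CDH11, S100A4 and SNAI2 among the mesenchymal members, CDH3, CLDN1, JUP and ESRP1 among the epithelial members, and S100A14. The 3 that fell were TAGLN, ACTA2 and KRT14. The median log2 fold change was 0.06 over 15 mesenchymal members, 0.34 over 13 epithelial members and -0.14 over 10 keratin and S100 members, beside 0.01 over all genes tested. The 4 WT normoxia libraries serve as controls in both comparisons, whose values are therefore not independent.

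WT hypoxia and KO cells were also compared directly, which is the test of whether the groups differ, although genotype and oxygen both differ between them. Of 38 members tested, 7 were higher in KO cells and 4 lower. Over all 21158 genes tested, 7.08% were called higher and 7.88% lower, 15.0% in all, against 28.9% of the members tested. FN1, CDH11, S100A4, ZEB1, ESRP1, CLDN1 and S100A14 were higher in KO cells, and TAGLN, ACTA2, KRT14 and KRT19 were lower. Whether called or not, the ranges of the 2 groups did not overlap for 17 of 37 members under hypoxia, 20 of 38 in KO cells and 25 of 38 between KO cells and hypoxia, beside 26.4%, 30.8% and 35.9% of all genes tested.

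**Figure D2:**
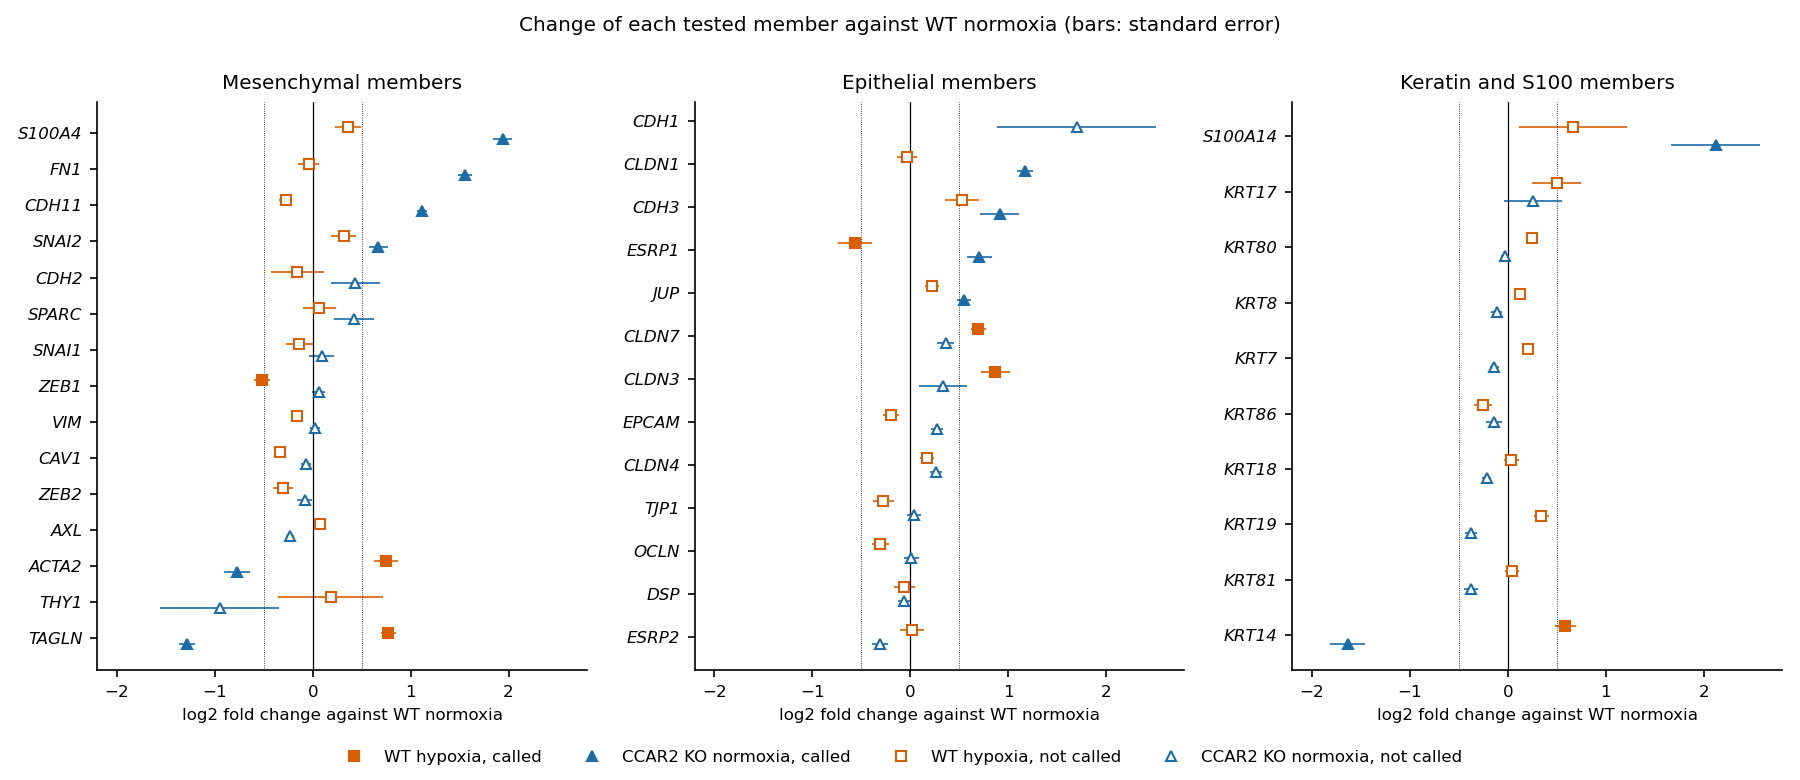
Log2 fold change of each tested member against WT normoxia, with its standard error, for WT hypoxia and CCAR2 KO normoxia, with filled symbols for called genes. TAGLN, ACTA2 and KRT14 lie right of 0 under hypoxia and left of 0 in KO cells, and FN1, CDH11, S100A4 and CLDN1 are called in KO cells and not under hypoxia.

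Among the transcription factors, ZEB1, a zinc finger repressor of epithelial genes (chr10:31318495-31529814), was the most abundant per length, at 7.23 CPM per kb in WT normoxia, followed by SNAI1 (1.62), SNAI2 (1.12) and ZEB2 (0.757). These neighbours did not overlap in WT normoxia, but SNAI1 and SNAI2 overlapped in hypoxia (1.48 and 1.41 CPM per kb) and in KO cells (1.73 and 1.78 CPM per kb). ZEB1 was at 72.3, 59.2, 57.7 and 61.1 CPM in WT normoxia, at 47.9, 40.1, 45.6 and 42.1 CPM in hypoxia and at 69.4, 63.2, 64.8 and 64.1 CPM in KO cells. All 4 hypoxia libraries lay below the other 8. Under hypoxia the log2 fold change was -0.52 ± 0.08 (SE; edgeR, adjusted p = 0.00122). This lies just past the fold threshold, and the change was -0.45 without WT normoxia replicate 1, -0.48 without WT hypoxia replicate 2, -0.50 without WT hypoxia replicate 4 and -0.38 with a trend on GC content removed, none of which was called. In KO cells it was 0.06 ± 0.07 (edgeR, adjusted p = 0.525), and KO cells exceeded hypoxia by 0.57 ± 0.06 (edgeR, adjusted p = 3.6e-05), a call that was lost at 0.48 with the GC trend removed.

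SNAI2, or Slug, a repressor of E-cadherin (chr8:48917604-48921740), moved in KO cells. Its levels were 3.71, 3.59, 4.14 and 3.78 CPM in WT normoxia, 5.80, 3.92, 4.84 and 4.53 CPM in hypoxia and 6.77, 5.98, 5.50 and 5.95 CPM in KO cells. All KO libraries lay above all WT normoxia libraries, and hypoxia overlapped both groups. SNAI2 rose in KO cells by 0.67 ± 0.10 (log2, SE; edgeR, adjusted p = 0.000247), while the value under hypoxia, 0.32 ± 0.13, did not pass (edgeR, adjusted p = 0.0956). The direct difference between KO cells and hypoxia was 0.34 ± 0.13 and was not called (edgeR, adjusted p = 0.0646).

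SNAI1, or Snail, lay between 2.19 and 3.33 CPM in the 12 libraries, with log2 fold changes of -0.14 and 0.09. ZEB2 lay between 13.4 and 20.2 CPM, with log2 fold changes of -0.31 under hypoxia (edgeR, adjusted p = 0.0524) and -0.08 in KO cells.

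SNAI and ZEB factors are known to bind the E-box letters CAGGTG, or CACCTG on the other strand. These letters were searched on both strands in the 250 bases before each start site in the RefSeq promoter table (GRCh38.p14), in which 24 of the 45 members have 43 start windows. They occur in 17.5% of all 35116 windows of this length, and in 16 of the 43 members' windows (37.2%), which were 4 of 22 mesenchymal, 6 of 14 epithelial and 6 of 7 keratin and S100 windows. Windows of a gene overlap and share letters. By gene, 12 of the 24 held them, of which ZEB1, CLDN7, JUP, S100A4 and S100A14 were called in at least 1 comparison, while DSP, OCLN, TJP1, AXL, KRT5, S100A8 and S100A9 were called in none, the last 3 having no counts. For each called member, the sites in its start window with the most matches follow, with DSP as an example of those not called. This choice says nothing of whether the letters go with the calls. Another start window of ZEB1, not shown, also held a match. Each site is 30 bases on the gene's strand, with the E-box letters in capitals.
ZEB1, chr10:31318966-31318995: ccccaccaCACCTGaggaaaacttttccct
ZEB1, chr10:31319119-31319148: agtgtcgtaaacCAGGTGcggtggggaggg
CLDN7, chr17:7262635-7262664: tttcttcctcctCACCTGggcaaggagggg
CLDN7, chr17:7262596-7262625: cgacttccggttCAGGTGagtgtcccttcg
CLDN7, chr17:7262479-7262508: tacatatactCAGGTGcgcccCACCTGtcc
JUP, chr17:41786008-41786037: ctggcccCACCTGccgagCAGGTGagcgca
S100A4, chr1:153545953-153545982: cccacgggtgccCACCTGggaacaggaggc
S100A14, chr1:153616326-153616355: gtataagagctgagctCAGGTGagctggct
DSP, chr6:7541481-7541510: gggcggcgggcgCAGGTGgggaggggcggc
DSP, chr6:7541574-7541603: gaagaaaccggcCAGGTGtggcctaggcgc

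ZEB1 and DSP lie on the plus strand and the other genes on the minus strand. Apart from the first DSP site, the printed E-box letters lie inside the GENCODE v29 span of their gene, which can begin farther upstream than these start sites. The third CLDN7 site and the JUP site each hold the letters in both orientations, 5 bases apart. The single-start members VIM, FN1, SPARC, ZEB2, TWIST2, CLDN1, CLDN3, CLDN4 and KRT8 had no such letters in their window. The core letters of the hypoxia response element, ACGTG or GCGTG on either strand, occur in 43.2% of all windows and in 19 of the 43 members' windows (44.2%). A match is a description of letters only, and binding was not measured.

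Fibronectin (FN1, chr2:215360440-215436172), a matrix glycoprotein and a classical mesenchymal marker, rose in KO cells. It was at 448, 365, 380 and 458 CPM in WT normoxia, at 447, 320, 436 and 411 CPM in hypoxia and at 1222, 1145, 1277 and 1216 CPM in KO cells. The lowest KO library was above the highest of the 8 WT libraries by more than the whole range of either WT group, and the WT groups overlapped. The log2 fold change in KO cells was 1.56 ± 0.07, a fold of 2.94 (edgeR, adjusted p = 3.1e-08), against -0.04 ± 0.11 under hypoxia (edgeR, adjusted p = 0.831). KO cells exceeded hypoxia by 1.59 ± 0.09 (edgeR, adjusted p = 3.2e-07). SPARC, or osteonectin, another matrix protein, lay between 1.05 and 2.01 CPM and was not called in KO cells (0.42 ± 0.20; edgeR, adjusted p = 0.140). Without CCAR2 KO normoxia replicate 2 it was called, at 0.58 against WT normoxia and 0.50 against hypoxia.

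Of the cadherins, the adhesion molecules whose exchange marks the transition, CDH11 was the most abundant per length at 10.9 CPM per kb in WT normoxia, followed by CDH3 (0.269), CDH2 (0.0915) and CDH1 (0.00684). The order was the same in all 3 groups, and no neighbours overlapped. CDH11, a mesenchymal cadherin (chr16:64943753-65126112), was at 138, 150, 138 and 158 CPM in WT normoxia, at 127, 110, 127 and 121 CPM in hypoxia and at 320, 301, 330 and 319 CPM in KO cells. The 3 groups did not overlap, with KO cells highest. CDH11 rose in KO cells by 1.12 ± 0.05 (log2, SE; edgeR, adjusted p = 2.7e-08), and under hypoxia its change of -0.28 ± 0.07 was below the fold threshold (edgeR, adjusted p = 0.0114). KO cells exceeded hypoxia by 1.39 ± 0.06 (edgeR, adjusted p = 2.7e-08).

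P-cadherin (CDH3, chr16:68636189-68722616), found in basal epithelia and counted here with the epithelial genes, was at 1.31, 1.96, 1.44 and 2.0 CPM in WT normoxia, at 2.52, 2.17, 2.90 and 2.14 CPM in hypoxia and at 2.08, 3.53, 3.65 and 3.39 CPM in KO cells. Both other groups lay above WT normoxia and overlapped each other. CDH3 rose in KO cells by 0.91 ± 0.20 (log2, SE; edgeR, adjusted p = 0.00395). Under hypoxia the value of 0.53 ± 0.18 missed the threshold (edgeR, adjusted p = 0.0507), but CDH3 was called at 0.63 without WT normoxia replicate 4 and at 0.58 without WT hypoxia replicate 2. DESeq2 (0.53, adjusted p = 0.017) and limma-voom (0.56, adjusted p = 0.037) also called it, each giving 6 members higher under hypoxia, as did 4 other settings of the edgeR fit. KO cells exceeded hypoxia by 0.37 ± 0.19 (edgeR, adjusted p = 0.152), which became a call at 0.53 without CCAR2 KO normoxia replicate 1. N-cadherin (CDH2), the cadherin gained in the transition, lay between 0.294 and 0.708 CPM in the 12 libraries and was not called in any comparison.

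The contractile genes TAGLN and ACTA2 rose under hypoxia and fell in KO cells. TAGLN (chr11:117199321-117204782), which encodes transgelin, an actin-binding protein of smooth muscle, was at 37.9, 43.7, 42.7 and 34.6 CPM in WT normoxia, at 65.8, 73.1, 64.7 and 69.4 CPM in hypoxia and at 15.0, 17.0, 17.0 and 16.3 CPM in KO cells. The 3 groups were well apart, with hypoxia highest and KO cells lowest. TAGLN rose under hypoxia by 0.77 ± 0.08 (log2, SE; edgeR, adjusted p = 8.5e-05) and changed by -1.28 ± 0.08 in KO cells (edgeR, adjusted p = 1.9e-07). The direct difference of KO cells from hypoxia was -2.07 ± 0.06 (edgeR, adjusted p = 4.4e-09), the smallest p-value among the members in that comparison.

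ACTA2 (chr10:88935074-88991339), smooth muscle alpha actin, showed the same order. Its levels were 3.03, 4.16, 3.52 and 4.10 CPM in WT normoxia, 6.55, 6.36, 5.61 and 6.47 CPM in hypoxia and 1.87, 2.41, 2.16 and 2.25 CPM in KO cells. Again no groups overlapped. ACTA2 rose under hypoxia by 0.75 ± 0.12 (log2, SE; edgeR, adjusted p = 0.00155) and changed by -0.77 ± 0.13 in KO cells (edgeR, adjusted p = 0.000921), with a direct difference of -1.53 ± 0.12 (edgeR, adjusted p = 2.2e-06). The exons of ACTA2 overlap those of ACTA2-AS1 on the opposite strand over 17.3% of their length and those of FAS over 12.8%, and 11.4% of the TAGLN exons overlap PCSK7. Reads from such overlaps cannot be told apart without strand, and the sources used here do not state that strand was used.

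S100A4 (chr1:153543613-153550136), a calcium-binding protein linked to cell motility, had the largest log2 fold change among the mesenchymal members in KO cells. It was at 13.5, 19.5, 16.2 and 16.9 CPM in WT normoxia, at 16.6, 25.8, 21.3 and 21.5 CPM in hypoxia and at 56.6, 65.3, 66.4 and 65.4 CPM in KO cells. Every KO library was above every WT library, and the WT groups overlapped. S100A4 rose in KO cells by 1.94 ± 0.10, a fold of 3.84 (edgeR, adjusted p = 4.6e-08), and KO cells exceeded hypoxia by 1.57 ± 0.11 (edgeR, adjusted p = 1.3e-06). Under hypoxia the value was 0.36 ± 0.13 (edgeR, adjusted p = 0.0783).

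The membrane proteins of the mesenchymal class, AXL, CAV1 and THY1, were not called by edgeR in any comparison. AXL, a receptor tyrosine kinase, lay between 959 and 1248 CPM, and its KO libraries (959 to 987 CPM) were below all WT libraries, at a log2 fold change of -0.23 ± 0.04 that was under the fold threshold (edgeR, adjusted p = 0.000632). CAV1, the coat protein of caveolae, had a log2 fold change of -0.33 ± 0.06 under hypoxia, also under the fold threshold (edgeR, adjusted p = 0.00376). THY1, a fibroblast surface protein, was at 0.0507 to 0.484 CPM, with log2 fold changes of 0.18 ± 0.54 under hypoxia and -0.95 ± 0.61 in KO cells. KO cells and hypoxia did not overlap in THY1, at a difference of -1.14 ± 0.47 (edgeR, adjusted p = 0.0810), which limma-voom called at -1.30 (adjusted p = 0.049).

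Of the fibroblast markers checked, COL1A1 made up most of a summed level of 14.3 to 16.1 CPM in WT normoxia, 12.5 to 18.8 CPM in hypoxia and 20.3 to 23.7 CPM in KO cells, while DCN and LUM reached at most 0.0446 and 0.116 CPM in any library. Of the 5 leukocyte markers, CD68 made up nearly all of a summed level of 88.1 to 97.9 CPM in WT normoxia, 98.3 to 116 CPM in hypoxia and 73.2 to 83.8 CPM in KO cells, and PTPRC reached at most 0.236 CPM. The part of other cells in the results for the mesenchymal members was not tested.

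**Figure D3:**
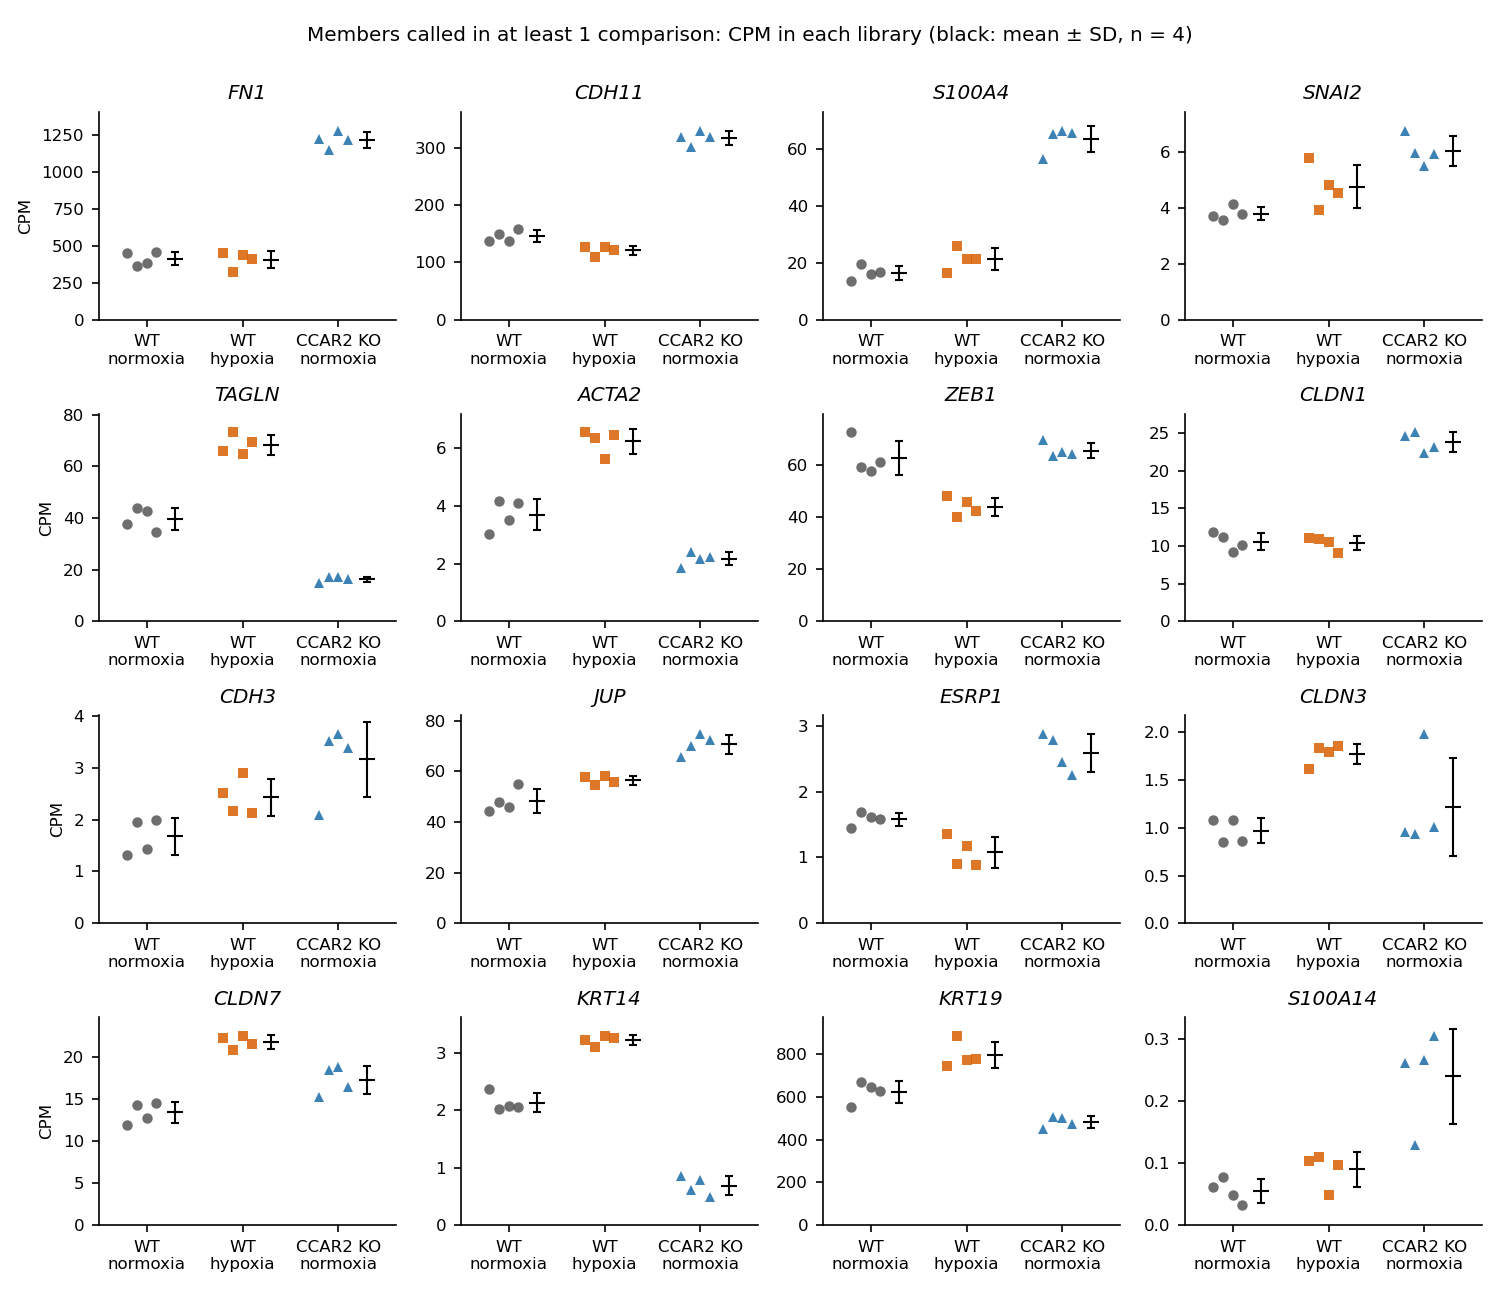
CPM of the 16 members called in at least 1 comparison, in each of the 4 libraries of WT normoxia, WT hypoxia and CCAR2 KO normoxia, with the mean and SD in black. For FN1, CDH11, S100A4 and CLDN1 the KO libraries lie apart from both WT groups, and for TAGLN, ACTA2 and KRT14 hypoxia is highest and KO cells lowest.

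Tight junctions of epithelia are built from claudins, occludin and the scaffold ZO-1. Per length, the claudins ranked CLDN4 (13.4 CPM per kb), CLDN7 (5.36), CLDN1 (2.89) and CLDN3 (0.760) in WT normoxia, and the ranges of neighbours did not overlap, whereas in KO cells CLDN7 (6.90) and CLDN1 (6.49) overlapped. Claudin 1 (CLDN1, chr3:190305701-190322475) was at 11.8, 11.2, 9.23 and 10.1 CPM in WT normoxia, at 11.04, 10.98, 10.5 and 9.12 CPM in hypoxia and at 24.6, 25.1, 22.3 and 23.1 CPM in KO cells. The KO libraries were all above both WT groups, which overlapped. CLDN1 rose in KO cells by 1.17 ± 0.08, a fold of 2.25 (edgeR, adjusted p = 5.9e-07), and was at -0.03 ± 0.10 under hypoxia (edgeR, adjusted p = 0.865). KO cells exceeded hypoxia by 1.19 ± 0.08 (edgeR, adjusted p = 6.3e-07).

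Claudins 3 and 7 instead rose under hypoxia. CLDN7 (chr17:7259903-7263983) was at 11.9, 14.2, 12.8 and 14.5 CPM in WT normoxia, at 22.3, 20.7, 22.4 and 21.5 CPM in hypoxia and at 15.2, 18.4, 18.8 and 16.4 CPM in KO cells. The 3 groups did not overlap, and KO cells lay between the WT groups. The log2 fold change was 0.69 ± 0.08 under hypoxia (edgeR, adjusted p = 0.000177) and 0.36 ± 0.09 in KO cells, under the fold threshold (edgeR, adjusted p = 0.00786). The direct difference of -0.34 ± 0.08 was also under it (edgeR, adjusted p = 0.00414).

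CLDN3 (chr7:73768997-73770270) was at 1.08, 0.848, 1.08 and 0.864 CPM in WT normoxia, at 1.62, 1.84, 1.79 and 1.85 CPM in hypoxia and at 0.955, 0.932, 1.98 and 1.00 CPM in KO cells. Replicate 3 of the KO cells lay above all other libraries, and the other KO libraries lay within the WT normoxia range. CLDN3 rose under hypoxia by 0.87 ± 0.15 (log2, SE; edgeR, adjusted p = 0.00202), and the value in KO cells was 0.34 ± 0.24 (edgeR, adjusted p = 0.347). KO cells and hypoxia differed by -0.54 ± 0.24, which was not called (edgeR, adjusted p = 0.109), but without CCAR2 KO normoxia replicate 3 the difference was -0.88 and was called. CLDN4 was at 56.4 to 81.5 CPM over the 12 libraries, with log2 fold changes of 0.17 under hypoxia and 0.27 in KO cells. The latter missed only the fold threshold (edgeR, adjusted p = 0.00642). OCLN (occludin) and TJP1 (ZO-1) had log2 fold changes of -0.31 and -0.27 under hypoxia and of 0.01 and 0.04 in KO cells, and none of these was called. That of OCLN under hypoxia missed only the fold threshold (edgeR, adjusted p = 0.0254).

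Desmosomes anchor keratin filaments at the cell border. Plakoglobin (JUP, chr17:41754604-41786931), which is shared by desmosomes and adherens junctions, was at 44.2, 47.9, 46.0 and 55.1 CPM in WT normoxia, at 57.9, 54.5, 58.0 and 55.7 CPM in hypoxia and at 65.7, 69.9, 74.7 and 72.5 CPM in KO cells. The KO libraries lay above all WT libraries. JUP rose in KO cells by 0.55 ± 0.07 (log2, SE; edgeR, adjusted p = 7.5e-05), against 0.22 ± 0.07 under hypoxia and 0.32 ± 0.05 between KO cells and hypoxia, both under the fold threshold. Desmoplakin (DSP), the linker to the keratins, lay between 150 and 225 CPM, with log2 fold changes of -0.06 in both comparisons with WT normoxia. EPCAM, an epithelial adhesion molecule, had log2 fold changes of -0.20 under hypoxia and 0.27 in KO cells, the latter under the fold threshold (edgeR, adjusted p = 0.00323). KO cells exceeded hypoxia by 0.46 ± 0.08, also under the fold threshold (edgeR, adjusted p = 0.000709). Without WT hypoxia replicate 2 the EPCAM difference was called at 0.52, and with a trend on gene length removed at 0.53.

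The epithelial splicing factor ESRP1 (chr8:94641074-94707466) was called in all 3 comparisons. It was at 1.44, 1.68, 1.62 and 1.58 CPM in WT normoxia, at 1.36, 0.894, 1.18 and 0.881 CPM in hypoxia and at 2.87, 2.78, 2.45 and 2.25 CPM in KO cells. The 3 groups did not overlap, with KO cells highest and hypoxia lowest. ESRP1 rose in KO cells by 0.71 ± 0.13 (log2, SE; edgeR, adjusted p = 0.00113), and KO cells exceeded hypoxia by 1.26 ± 0.18 (edgeR, adjusted p = 0.000212). Under hypoxia the change was -0.56 ± 0.17 (edgeR, adjusted p = 0.0371).

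The call of ESRP1 under hypoxia was weak. It was lost when any WT normoxia replicate was left out, at -0.61, -0.53, -0.56 and -0.56 without replicates 1 to 4, and without WT hypoxia replicates 2, 3 and 4, at -0.49, -0.61 and -0.47. With a replicate block it was -0.58 (edgeR, adjusted p = 0.054). Its relative ESRP2 lay between 10.8 and 16.4 CPM, with log2 fold changes of 0.02 under hypoxia and -0.31 ± 0.08 in KO cells, the latter under the fold threshold (edgeR, adjusted p = 0.0149).

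Of 8 luminal markers, the summed level was 11.1 to 12.8 CPM in WT normoxia, 9.82 to 10.9 CPM in hypoxia and 24.6 to 27.8 CPM in KO cells. SPDEF, an epithelial ETS factor, made up most of the difference, at 3.90 CPM on average in WT normoxia and 16.3 CPM in KO cells, and CDH1, ESR1 and PGR stayed near 0. Of 6 basal markers, KRT5 was at 0 in all libraries and the summed level was 35.9 to 42.7 CPM in WT normoxia, 37.4 to 53.7 CPM in hypoxia and 61.7 to 63.4 CPM in KO cells. MYLK alone made up 32.3 CPM on average in WT normoxia and 56.2 CPM in KO cells, and the basal markers did not move together. In KO cells the log2 fold changes were 2.02 for TP63, 0.80 for MYLK and 0.16 for TRIM29, against -1.63 for KRT14 and -0.16 for OXTR. Those of TRIM29 and OXTR did not pass the test (edgeR, adjusted p = 0.59 and 0.32). The part of luminal or basal cells in the results for the epithelial members was not tested.

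Among the keratins, the simple-epithelium chains were abundant in all groups. Per length the order in WT normoxia was KRT19 (267 CPM per kb), KRT7 (226), KRT18 (200), KRT8 (128), KRT81 (118), KRT80 (50.5), KRT86 (3.96), KRT14 (0.936), KRT17 (0.129) and KRT5 (0). KRT8 and KRT81 overlapped in WT normoxia, and KRT19 (207) and KRT7 (205) overlapped in KO cells. All other neighbours were apart in each group.

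KRT14 (chr17:41582279-41586921), the type I partner of KRT5 in basal cells, was the only keratin among the members called against WT normoxia. It was at 2.37, 2.03, 2.08 and 2.05 CPM in WT normoxia, at 3.24, 3.10, 3.30 and 3.27 CPM in hypoxia and at 0.854, 0.602, 0.786 and 0.495 CPM in KO cells. The 3 groups were apart, with hypoxia highest and KO cells lowest. KRT14 rose under hypoxia by 0.59 ± 0.11 (log2, SE; edgeR, adjusted p = 0.00293) and changed by -1.63 ± 0.18 in KO cells (edgeR, adjusted p = 2.9e-05), with a direct difference of -2.23 ± 0.18 (edgeR, adjusted p = 3.3e-06). With a GC trend removed the value under hypoxia was 0.42 and not called. Of the 100-base stretches in its transcripts, 4.08% also occur in other genes, KRT16 and pseudogenes among them.

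KRT19 (chr17:41523617-41528308), a type I keratin of simple epithelia, showed the same order at a far higher level. It was at 552, 669, 646 and 630 CPM in WT normoxia, at 746, 886, 773 and 779 CPM in hypoxia and at 450, 508, 500 and 472 CPM in KO cells. No groups overlapped. Against WT normoxia the log2 fold changes of 0.34 ± 0.07 and -0.37 ± 0.06 were under the fold threshold (edgeR, adjusted p = 0.00701 and 0.000683), and between KO cells and hypoxia the difference of -0.73 ± 0.06 was called (edgeR, adjusted p = 6.9e-06).

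Over the 9 keratins tested, 8 log2 fold changes were above 0 under hypoxia and 8 were below 0 in KO cells, with medians of 0.20 and -0.14. Over all genes tested, 11195 of 21776 were above 0 under hypoxia and 10481 of 21410 were below 0 in KO cells. In each comparison 1 keratin was called (11.1%), beside 7.26% of all genes under hypoxia and 9.67% in KO cells. Directions of genes that were not called are values only, and the comparisons share the WT normoxia libraries. KRT7 had values of 0.20 and -0.14, KRT8 of 0.12 and -0.12, KRT18 of 0.04 and -0.21, KRT80 of 0.25 and -0.03 and KRT81 of 0.04 and -0.38. Besides KRT19, some of these missed only the fold threshold. Under hypoxia they were KRT7 and KRT80 (edgeR, adjusted p = 0.0209 and 0.00575). In KO cells they were KRT7, KRT18 and KRT81 (edgeR, adjusted p = 0.0362, 0.00373 and 0.00144). KRT86 was at -0.25 and -0.14 and KRT17 at 0.50 and 0.25. KRT81 and KRT86 are near-identical hair keratins that share 29.7% and 25.8% of their 100-base stretches with other genes, so that reads could have been split between them, and KRT8 and KRT18 overlap over 525 bases on opposite strands.

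S100A14 (chr1:153614255-153616986), an epithelial S100 protein, was the scarcest member called, with 5 to 41 counts per library. It was at 0.0611, 0.0781, 0.0479 and 0.0327 CPM in WT normoxia, at 0.104, 0.110, 0.0486 and 0.0962 CPM in hypoxia and at 0.260, 0.129, 0.266 and 0.305 CPM in KO cells. All KO libraries lay above all WT libraries. S100A14 rose in KO cells by 2.12 ± 0.45 (log2, SE; edgeR, adjusted p = 0.00348), and the value under hypoxia was 0.66 ± 0.55 (edgeR, adjusted p = 0.441). KO cells exceeded hypoxia by 1.45 ± 0.46 (edgeR, adjusted p = 0.0292), a call that was lost without WT hypoxia replicates 3 or 4 (1.23 and 1.5) and without CCAR2 KO normoxia replicates 1, 3 or 4 (1.41, 1.40 and 1.32).

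Wider lists of 136 further epithelial, mesenchymal and keratin genes gave the surroundings of the members. Under hypoxia, 6 of the 93 tested were called higher and 3 lower, 9.68% in all beside 7.26% of all genes. ITGB4, the integrin chain of hemidesmosomes, rose by 0.95 ± 0.08 (log2, SE; edgeR, adjusted p = 4.6e-05), CRB3, a polarity protein, by 0.84 ± 0.16 and PPL, which encodes periplakin, by 0.80 ± 0.10. TJP3 was the remaining epithelial gene that rose, at 0.85. NES, which encodes nestin, rose by 0.83 ± 0.07 and TPM2, a tropomyosin, by 0.63 ± 0.06. CDS1 (-0.70), PRRX1 (-0.64) and RUNX2 (-0.50) fell, and no wider keratin was called.

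In KO cells, 25 of the 95 wider genes tested were called higher and 6 lower, 32.6% in all beside 9.67% of all genes. Of the 44 wider epithelial genes tested, 16 rose and 2 fell, with a median log2 fold change of 0.34. TP63, a transcription factor of basal epithelia, rose by 2.02 ± 0.32 (log2, SE; edgeR, adjusted p = 0.000489), PPL by 1.55 ± 0.10, the ETS factor ELF3 by 1.45 ± 0.16 and MAL2, a protein of apical transport, by 1.41 ± 0.07. The 2 that fell were AP1M2 (-0.61) and CLDN12 (-0.57). Of the 42 wider mesenchymal genes tested, 7 rose and 4 fell, with a median of 0.05. S100A6 rose by 1.07 ± 0.10, RUNX2 by 1.06 ± 0.09 and DPYSL3 by 0.93 ± 0.10, and VCAN, the matrix proteoglycan versican, changed by -1.03 ± 0.20.

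Of 9 wider keratins tested in KO cells, KRT4 (2.25) and KRT13 (2.12), both of wet stratified epithelia, were called higher, at averages of 19.5 and 24.2 counts per library. KRT4 passed the filter on low counts only in the comparisons with KO cells, where its level was highest. It averaged 0.2345 CPM in KO cells and 0.0497 CPM in WT normoxia, so the group called higher also let it into the test. The same filter result held for MGP, a wider mesenchymal gene called higher in KO cells. KRT4, KRT13, MGP, TJP3, PRRX1, AP1M2 and CLDN12 are outside the rule for naming genes of the wider lists and were named after their values were seen.

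**Figure D4:**
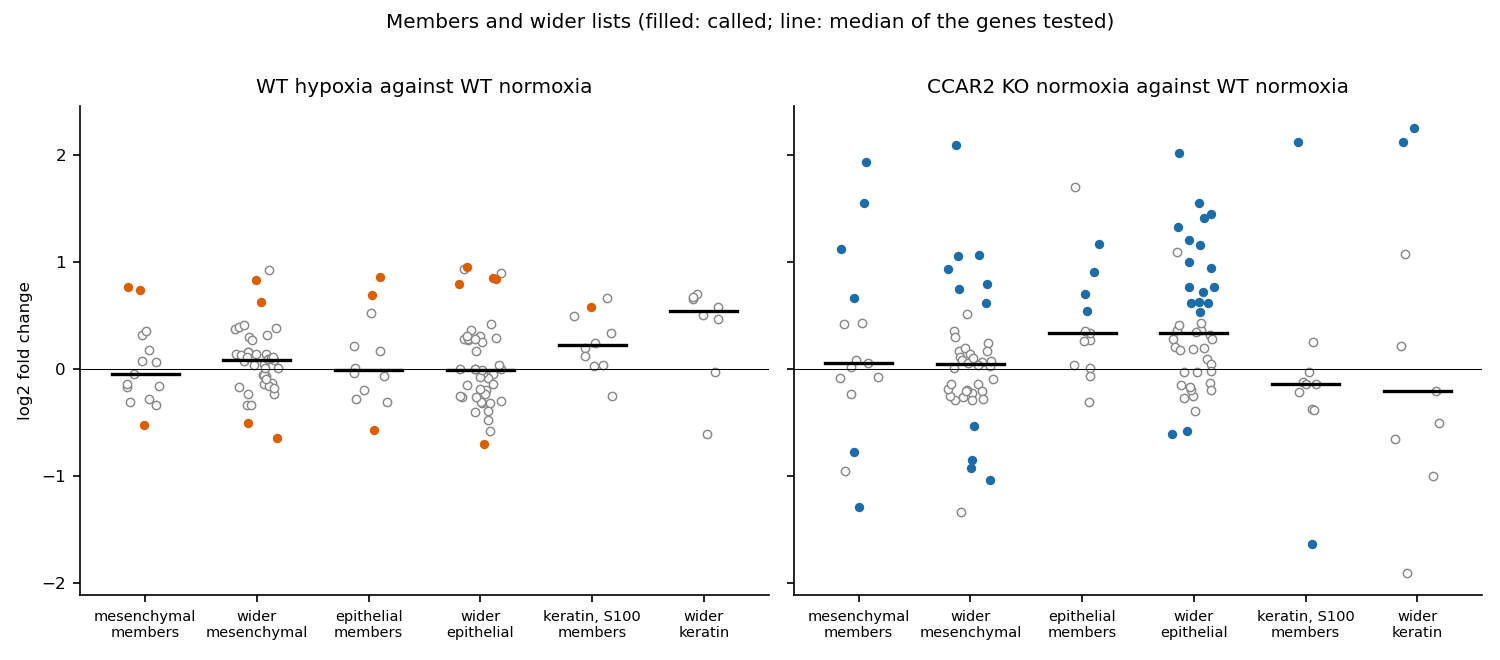
Log2 fold change of every tested member and wider-list gene against WT normoxia, by list, for WT hypoxia and CCAR2 KO normoxia, with filled points for called genes and a line at the median. In KO cells the epithelial members and the wider epithelial genes both have a median of 0.34, whereas the mesenchymal lists have medians of 0.06 and 0.05.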

How the data were processed

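RNA-seq was performed on 12 libraries, grouped by the condition in their labels. According to the methods, the authors cleaned the reads, aligned them with Hisat2, quantified genes with StringTie and compared groups with DESeq2, while the submitters' processing notes name HISAT2, SAMtools and featureCounts. The genome build is not given in the sources used here. The deposited files hold expected counts, as whole numbers for each gene and without scaling to library size. The value 4 was more frequent than 3 or 5 in each library, and why was not tested. The scale of the values is not stated, so their sums were not read as sequencing depth.

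Each comparison was fitted on its 8 libraries with edgeR 4.0.16 in R 4.3.3 (TMM, filterByExpr, glmQLFit, glmQLFTest) over all genes that passed the filter, with Benjamini-Hochberg adjustment. Every adjusted p-value is from this test unless another fit is named. CPM used TMM factors over all 12 libraries. Standard errors were the absolute log2 fold change divided by the square root of F. Members and lists were chosen with earlier results of these data known. Each member is named, and of each wider list the 4 largest called changes with at least 100 counts on average and no overlap between groups. The replicate numbers did not pair the libraries, as deviations from group means correlated between -0.025 and 0.065. Alternatives were DESeq2 1.42.0, limma-voom (limma 3.58.1), other normalizations, filters and thresholds, a replicate block and each library left out. Exon lengths, overlaps and shared sequence came from GENCODE v29 on GRCh38, in which 58396 of the 60664 identifiers were found.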

Additional observations from a re-analysis of the deposited data

Results flagged for a closer look

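In 6 of the 114 groups of 4 libraries examined (38 genes in 3 groups), 1 library stood apart from the other 3, by a gap that took up most of the group's range and exceeded Dixon's 95% critical value, and chance gives about 5.7. In KO cells, S100A4 was low in replicate 1 (56.6 CPM against 65.3 to 66.4 CPM in the others, gap share 0.887), CDH3 was low in the same library (2.08 against 3.39 to 3.65 CPM, 0.834) and CLDN3 was high in replicate 3 (1.98 against 0.932 to 1.00 CPM, 0.930). In WT normoxia replicate 1, CLDN4 was low (56.4 against 64.2 to 65.7 CPM, 0.835) and KRT14 was high (2.37 against 2.03 to 2.08 CPM, 0.844). In WT hypoxia replicate 2, the library farthest from its group over all genes, KRT17 was high (0.771 against 0.486 to 0.527 CPM, 0.859). The KO calls of S100A4 and CDH3 and both KRT14 calls against WT normoxia were kept when any library was left out.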

How the results depend on the processing

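Of the 30 calls of members in the 3 comparisons, 25 were kept under every alternative (4 of 7 under hypoxia, 12 of 12 in KO cells and 9 of 11 between KO cells and hypoxia), and no called member changed direction. The calls lost were ESRP1, ZEB1 and KRT14 under hypoxia and S100A14 and ZEB1 between KO cells and hypoxia. The count of members lower under hypoxia, 2, was 1 with no filter, 1 with the replicate block, 1 with counts divided by 4, 1 with a length trend removed and 0 with a GC trend removed, and wider genes lower under hypoxia, 3, were 1 with limma-voom and 1 with the GC trend removed. The division by 4 and both trends were chosen after seeing the data. With the adjusted p-value alone, members under hypoxia were 9 higher and 5 lower, and wider genes under hypoxia 18 higher and 12 lower. Members lower in KO cells were then 9, and EPCAM, CLDN4 and CLDN7 joined the members higher in KO cells. Wider genes in KO cells were 38 higher and 20 lower, and members between KO cells and hypoxia 13 higher and 12 lower. Leaving out each library in turn gave 5 to 6 members higher and 0 to 2 lower under hypoxia, 9 to 10 higher and 3 lower in KO cells, 6 to 8 higher and 4 to 5 lower between KO cells and hypoxia, 5 to 7 wider genes higher and 1 to 3 lower under hypoxia, and 24 to 27 higher and 6 to 8 lower in KO cells. No member was called lower under hypoxia without WT normoxia replicate 1 or WT hypoxia replicates 2 or 4, and 1 was without WT normoxia replicates 2, 3 or 4 or WT hypoxia replicate 3. Only 1 wider gene was called lower under hypoxia without WT normoxia replicates 2 or 4 or WT hypoxia replicate 4. The replicate block, with numbers that do not pair the libraries, also lost S100A14 between KO cells and hypoxia (1.44, edgeR, adjusted p = 0.077). Members with at most 41 counts, such as CDH1, GRHL2, OVOL1 and S100A14, are limited by depth.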

Other observations

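Genes of the wider lists also differed between KO cells and hypoxia. Of the 94 tested, 22 were called higher in KO cells and 9 lower, 33.0% in all beside 15.0% of all genes. Each gene named below was also called in KO cells against WT normoxia, in the same direction. ELF3 was at 2.45 ± 0.288 CPM (SD, n = 4) in KO cells and 0.602 ± 0.263 CPM in hypoxia, a log2 difference of 2.0 (edgeR, adjusted p = 0.000343), and MAL2 differed by 1.88 ± 0.08 (SE; edgeR, adjusted p = 4.0e-08). GRHL3, a grainyhead factor of epidermal barrier formation, was higher in KO cells by 1.51 and MARVELD2, the tight junction protein tricellulin, by 1.16. Among mesenchymal genes RUNX2, a transcription factor of bone formation, was higher in KO cells by 1.55, while VCAN differed by -1.43, the adhesion molecule MCAM by -1.20 and the secreted glycoprotein FSTL1 by -1.0. MCAM was at 93.9 ± 3.82 CPM in KO cells and 215 ± 6.89 CPM in hypoxia. Genotype and oxygen both differ in this comparison and cannot be told apart by it alone. Log2 fold changes against WT normoxia in KO cells and under hypoxia were 1.45 and -0.57 for ELF3 and 1.41 and -0.48 for MAL2. They were 1.21 and -0.32 for GRHL3, 0.77 and -0.40 for MARVELD2 and 1.06 and -0.50 for RUNX2. For VCAN they were -1.03 and 0.39, for MCAM -0.92 and 0.27 and for FSTL1 -0.845 and 0.15. Of these hypoxia values, only that of RUNX2 was called.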
